A study of Mus musculus with 4 samples.

Results

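DNA methyltransferases write methyl groups onto cytosine in CpG dinucleotides, and TET enzymes start their removal by oxidising them. The genes described here are 10 that do this work: the maintenance methyltransferase Dnmt1 and its helpers Uhrf1, Uhrf2 and Hells, the de novo enzymes Dnmt3a and Dnmt3b, the dioxygenases Tet1, Tet2 and Tet3, and the glycosylase Tdg. They were chosen by name, and every array probe listed under a mouse RefSeq transcript of one of them was taken. A probe was found for 8 of the 10 genes, 23 probes in all, out of 31089 named probes for 17466 genes. Tet1 and Tet3 were not analysed here, since no probe matched their transcripts.

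Primary connective tissue cells grown from embryos (mouse embryonic fibroblasts, MEFs) were compared at passage 2, labelled as growing, and at passage 7, labelled as replicatively senescent. Both passages were kept in DMEM with 10% serum and antibiotics, and strain, genotype and embryo age are not given in the sources used here. Per the labels, 3 independent cultures were carried to passage 7 and their RNA was pooled before labelling with Cy3. Each passage was read on 2 one-colour Agilent arrays, so the spread between the arrays of a passage may be technical, and p-values measure only that spread. Slide position and passage cannot be told apart.

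After each round of replication the new DNA strand carries no methyl groups, and the duplex is methylated on the parental strand only. UHRF1 binds such hemimethylated sites and brings in DNMT1, which copies the mark, while HELLS, a chromatin remodelling ATPase, opens nucleosomal DNA to this machinery. DNMT3A and DNMT3B can methylate DNA that carries no mark. TET enzymes oxidise methylcytosine, and TDG cuts out the most oxidised forms for base excision repair. Dnmt1 and Uhrf1 are known to be expressed most in dividing cells.

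A level below is the log2 processed signal of a gene's brightest probe after subtraction of the 75th percentile of its array, so it is relative to that array and is not compared between genes. That percentile was 1024 and 1404 signal units at passage 2 and 963.7 and 402.3 at passage 7, and 65.8% to 72.7% of spots were well above background. A change is passage 7 minus passage 2 and was called at a Benjamini-Hochberg adjusted p under 0.05, from limma fitted over all genes, and at least 2-fold. Of 13850 genes tested, 2689 were called (19.4%), 1305 lower (9.42%) and 1384 higher (9.99%), and the median gene's change was 0.20. With the normexp background correction, an alternative to the scanner's own, limma called 0 genes, with 664 at an unadjusted p under 0.05, so the calls by gene below ended in that setting, which was not run over probes. The arrays of passage 2 lay farther apart than those of passage 7, with a median gap per gene of 0.32 against 0.18.

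The maintenance genes Hells and Dnmt1 fell, and they were the 2 of 8 measured members called lower, where 9.42% of all genes were. No member was called higher, where 9.99% of all genes were. In 6 of the 8 members both passage 7 arrays lay below both passage 2 arrays, a pattern seen in 27.8% of all genes with 4 values. In no member did both lie above, against 40.6% of all genes. The median change of the 8 members was -0.79, and that of all genes was 0.20. All 8 were well above background on all 4 arrays. In RNA from whole cultures, fewer cells that express a gene and less RNA per cell cannot be told apart.

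**Figure D1:**
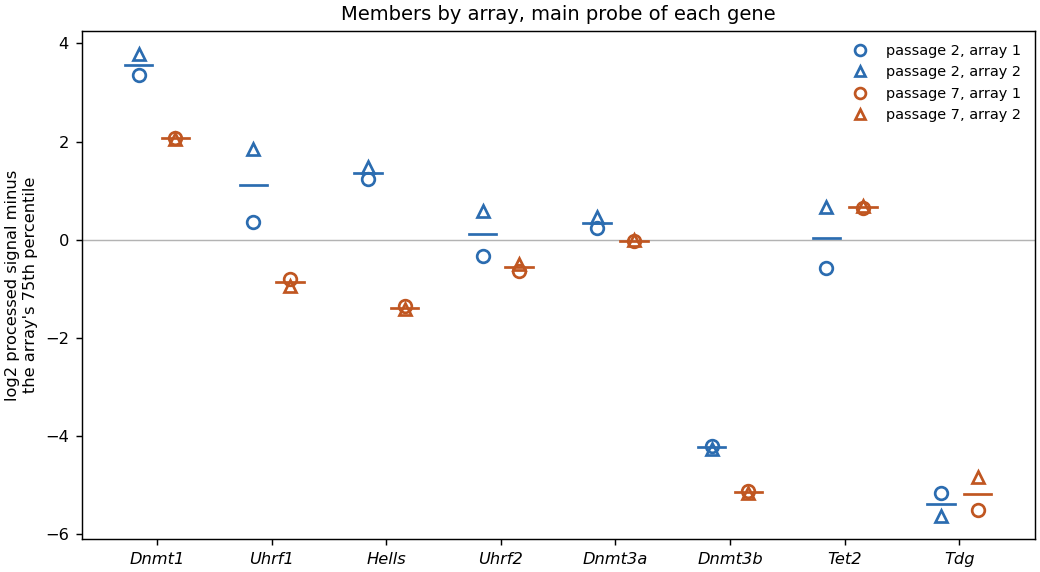
Level of each measured member on each array (y axis: log2 processed signal relative to the 75th percentile of the array), with passage 2 in blue, passage 7 in orange, circles and triangles for the arrays, and bars for the means of 2. Hells and Dnmt1 separate cleanly by passage, while Uhrf1, Uhrf2 and Tet2 show a wide gap between the passage 2 arrays.

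Promoter sequence is shown for the 3 maintenance genes with the largest falls, because short stretches of it hold a word that the other members' windows lack. The 4 words TTTCCCGC, TTTCGCGC, TTTGCCGC and TTTGGCGC, which are forms of the site that E2F factors of the cell cycle can bind, were searched on both strands in RefSeq windows (GRCm38.p6) from 250 bases before to 50 after each annotated start, of which each of the 10 members has at least 1. Below, capitals mark the word and each line reads 5′ to 3′ on the gene's strand.
Hells, chr19:38930917-38930946, plus strand, word beginning 62 bases before the start: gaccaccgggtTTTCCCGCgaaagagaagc
Uhrf1, chr17:56304117-56304146, plus strand, word beginning 185 bases before the start: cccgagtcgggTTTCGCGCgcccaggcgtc
Dnmt1, chr9:20952824-20952853, minus strand, word on the opposite strand, 219 bases before the start: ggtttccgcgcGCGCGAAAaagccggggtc
The same Dnmt1 window holds TTTGGCGC as well, 33 bases after the start.

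Of all 32851 windows, 744 (2.26%) held a word, and so did 461 of 11038 tested genes with a window (4.18%). Among genes called lower the share was 97 of 988 (9.82%), and among genes called higher 21 of 1074 (1.96%). A match is a description of the letters and not a binding site, and this array measured no binding. The members' windows also varied in CpG, the dinucleotide that these enzymes act on. That of Tet2 held 57 CpGs and those of Dnmt3a 46, 47 and 18. The Hells window held 34, the Uhrf1 windows 12 and 33, and the Dnmt1 windows 2, 12 and 33, against a median of 7 over all windows. The words of Uhrf1 and Dnmt1 shown above lie in their windows with 33 CpGs, and the other windows of these genes hold none.

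Hells showed the largest fall of the members. Its levels were 1.23 and 1.48 at passage 2 and -1.35 and -1.41 at passage 7, so the arrays of a passage lay close together and the passages far apart. The means were 1.35 ± 0.18 and -1.38 ± 0.04 (SD, n = 2 arrays each), a 6.67-fold fall (log2 change -2.74 ± 0.19 SE, limma adjusted p = 0.00518). Only 1.1% of tested genes had a change as low or lower. The other Hells probes gave -3.01 and -2.99, and all 3 were called in the fit over 30874 probes, where 8.53% were called lower.

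Dnmt1, the enzyme that copies methylation after replication, read 3.35 and 3.78 at passage 2 and 2.07 and 2.05 at passage 7. Both late arrays were lower than both early ones. The mean went from 3.56 ± 0.30 to 2.06 ± 0.01 (SD, n = 2), a 2.83-fold fall (log2 change -1.50 ± 0.22 SE, limma adjusted p = 0.0151). Its other probes gave -1.45 each, and all 3 were called. The call ended when either passage 7 array was left out (-1.51 with limma adjusted p = 0.0582, and -1.49 with adjusted p = 0.0742), while the size of the fall stayed close to the value from 4 arrays.

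Uhrf1, which brings DNMT1 to hemimethylated sites, read 0.37 and 1.86 at passage 2 and -0.80 and -0.94 at passage 7. The groups did not overlap, but the early arrays stood 1.49 apart, a gap wider than in 97.7% of genes. The change was -1.98 ± 0.52 SE, 3.95-fold lower, and missed the threshold at a limma adjusted p of 0.054. Without the first passage 2 array the change was -2.73 (adjusted p = 0.0279), and without the second -1.24 (adjusted p = 0.0483). The size of this fall therefore rests on which early array is read.

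The probes of Uhrf1 differed from each other. The second probe repeated the wide early gap, of 1.26, with a change of -2.05 ± 0.46 SE that was called (limma adjusted p = 0.0464 over all probes). The third read -0.03 and 0.05 at passage 2 and -1.43 and -0.75 at passage 7. There the early arrays were only 0.08 apart, and the change was -1.10 ± 0.29 SE (adjusted p = 0.0677).

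Uhrf2, a paralog of Uhrf1 that is known to replace it poorly in maintenance, read -0.34 and 0.58 at passage 2 and -0.64 and -0.49 at passage 7. Its change of -0.68 ± 0.35 SE did not pass the test (limma adjusted p = 0.211). The size of that change rests on the early array read: it was -1.14 without the first passage 2 array and -0.22 without the second. As for Uhrf1, the second early array was the higher, by 0.92, a gap wider than in 91.5% of genes. Its other probes gave -0.85 and -0.73. Within each array, the Uhrf2 probe minus the Uhrf1 probe moved from -0.71 and -1.28 at passage 2 to 0.16 and 0.45 at passage 7. That is a difference between their changes of 1.30, with an exact two-sided permutation p of 0.333, the smallest that 2 against 2 arrays can give. The size of this difference depends on the Uhrf1 probe, since the third one changed by only -1.10. With the mean of all probes the difference was 0.95.

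Neither de novo enzyme was called. Dnmt3a read 0.24 and 0.46 at passage 2 and -0.03 and -0.01 at passage 7. Its groups did not overlap, but the change of -0.37 ± 0.19 SE did not pass the test (limma adjusted p = 0.205). The other probes gave -0.40 and -0.59. In the authors' deposited value table the same Dnmt3a probe changed by -0.65 and passed on p alone (limma adjusted p = 0.035), below 2-fold.

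Dnmt3b, which is best known from early embryonic cells, was dim. Its processed signals were 55.5 and 73.3 at passage 2 and 27.7 and 11.3 at passage 7, which are levels of -4.21, -4.26, -5.12 and -5.16. The arrays of each passage were close, and the change of -0.91 ± 0.17 SE had a limma adjusted p of 0.0258. It was 1.88-fold lower, under the 2-fold minimum, so it was not called. Of all genes, 11.9% were lower by p alone. It was called lower with quantile normalization (-1.13, adjusted p = 0.0228), median scaling (-1.08, adjusted p = 0.0157) and the mean of all probes (-1.35, adjusted p = 0.0468). The direction turned under background correction by the normexp method (1.31, adjusted p = 0.586), and the adjusted p was 0.04996 to 0.196 when any one array was left out. The other Dnmt3b probes gave -1.78 and -1.37 and were well above background on only 1 of 2 passage 7 arrays.

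The comparisons between methyltransferases had the same limit of 2 arrays a passage. Dnmt3a minus Dnmt1 moved from -3.11 and -3.32 to -2.11 and -2.06 within arrays, so the Dnmt1 fall was the larger by 1.13. Dnmt3a minus Dnmt3b moved from 4.44 and 4.72 to 5.08 and 5.16, a difference of 0.54 that turned to -1.71 with normexp. The exact permutation p was 0.333 for each, the smallest possible.

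Tet2 and Tdg, the measured members on the removal side of the pathway, did not pass the test by gene in either direction. Tet2 read -0.57 and 0.66 at passage 2 and 0.64 and 0.69 at passage 7. The passages overlapped: the second early array lay at the height of the late ones, and the first stood apart by 1.22, a gap wider than in 96.1% of genes. The change was 0.62 ± 0.44 SE (limma adjusted p = 0.34), and the other Tet2 probe showed the same early gap, of 1.29, with a change of 0.65. Without the second passage 2 array Tet2 was higher by 1.23 (adjusted p = 0.0459), which is past the 2-fold minimum. Without the first, it was not.

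Tdg, the glycosylase, was near the floor of detection, with processed signals of 28.8 and 28.4 at passage 2 and 21.1 and 14.1 at passage 7. Its levels of -5.15, -5.63, -5.51 and -4.84 overlapped between passages. The change of 0.21 ± 0.32 SE did not pass (limma adjusted p = 0.645) and took the opposite sign in 5 alternative settings. The other Tdg probes were not well above background on either passage 7 array, so no fold is given, although one of them was called lower in the fit over probes (adjusted p = 0.0347).

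**Figure D2:**
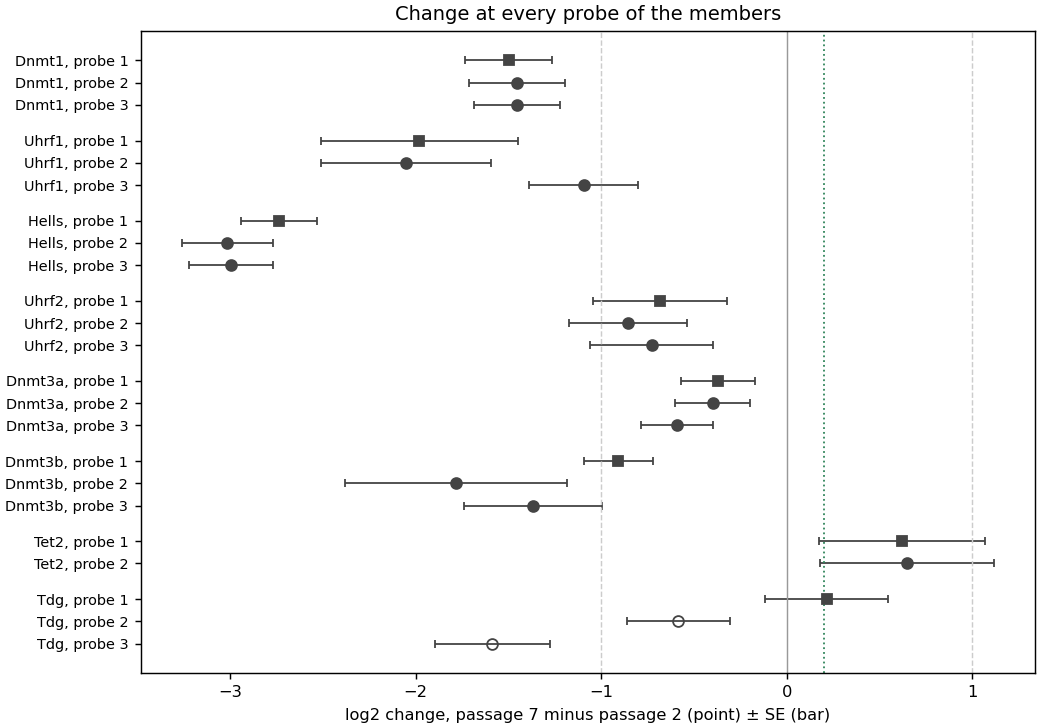
Change of every member probe (x axis: log2, passage 7 minus passage 2) with its standard error as a bar; squares mark the probe used for the gene, open symbols probes not well above background on either passage 7 array, the dotted line the median gene (0.20) and dashed lines 2-fold. The probes of Hells and of Dnmt1 lie together, and those of Uhrf1, Dnmt3b and Tdg spread.

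Over all member probes, 8 of 23 were called lower and none higher, where 8.53% and 8.72% of all tested probes were. Of the 8, 7 were well above background on every array, and they belong to Hells, Dnmt1 and Uhrf1. Probes of 1 gene share their RNA and are not replicates.

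Of 13 measured partners of maintenance methylation, 4 were called lower and none higher, with a median change of -0.65, where 9.42% of all genes were lower and 9.99% higher. Cdca7, the zinc finger protein that recruits HELLS to chromatin, fell 5.88-fold (log2 change -2.55 ± 0.18 SE, limma adjusted p = 0.00518). Its levels were 0.38 and 0.50 before and -2.19 and -2.04 after, with no overlap. Pclaf, a PCNA-binding protein, fell 5.68-fold (adjusted p = 0.0138), and Lig1, the ligase that joins Okazaki fragments, fell 4.23-fold (adjusted p = 0.00625). Pcna, the sliding clamp, was the other one (-1.19, adjusted p = 0.0151). It was named because it completes the count, and its call ended when either passage 7 array was left out. The rest, which include the repressor scaffold Trim28 (-0.44 ± 0.19 SE) and the deubiquitinase Usp7 (0.25 ± 0.17 SE), did not pass.

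Of 12 measured readers of methylated or unmethylated CpG, 1 was called in each direction, a share near that of all genes (9.42% lower and 9.99% higher). Kdm2b, a CpG-island binding histone demethylase, fell (-1.04, limma adjusted p = 0.0232) and Mbd5, of the methyl-CpG-binding domain family, rose (1.12, adjusted p = 0.0274). Both calls ended when either passage 7 array was left out. The median change of the readers was 0.06.

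Among partners of TET enzymes and base excision repair genes, 4 of 21 measured fell and 3 rose, with a median of -0.09, beside 9.42% and 9.99% of all genes. Neil3, a glycosylase, fell by 1.55 on the log2 scale (limma adjusted p = 0.0327), and its relative Neil2 rose 4.07-fold (adjusted p = 0.012). Neil2 read -3.29 and -3.87 at passage 2 and -1.46 and -1.64 at passage 7. Idh2, whose enzyme makes oxoglutarate in mitochondria, fell by 1.28 (adjusted p = 0.013), and the uracil glycosylase Ung by 1.12 (adjusted p = 0.0276). Idh1, a relative of Idh2 in the same list, did not pass (-0.11, limma adjusted p = 0.774). Gadd45g and Gadd45b, stress-induced genes linked to active demethylation, rose by 1.29 (adjusted p = 0.0222) and 1.13 (adjusted p = 0.0401). Without either passage 7 array no gene of this list was called lower and 1, Neil2, was called higher.

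Of the folate and methionine genes that supply methyl groups, 3 of 15 measured fell and none rose, with a median of -0.33. The folate carrier Slc19a1 fell by 1.09 on the log2 scale (limma adjusted p = 0.032) and the mitochondrial enzyme Mthfd1l by 1.04 (adjusted p = 0.0348). Both of these calls ended when either passage 7 array was left out. Over the 4 lists together, 12 of 61 measured genes were lower and 4 higher, where 9.42% and 9.99% of all genes were, and without either passage 7 array the counts were 4 and 1.

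**Figure D3:**
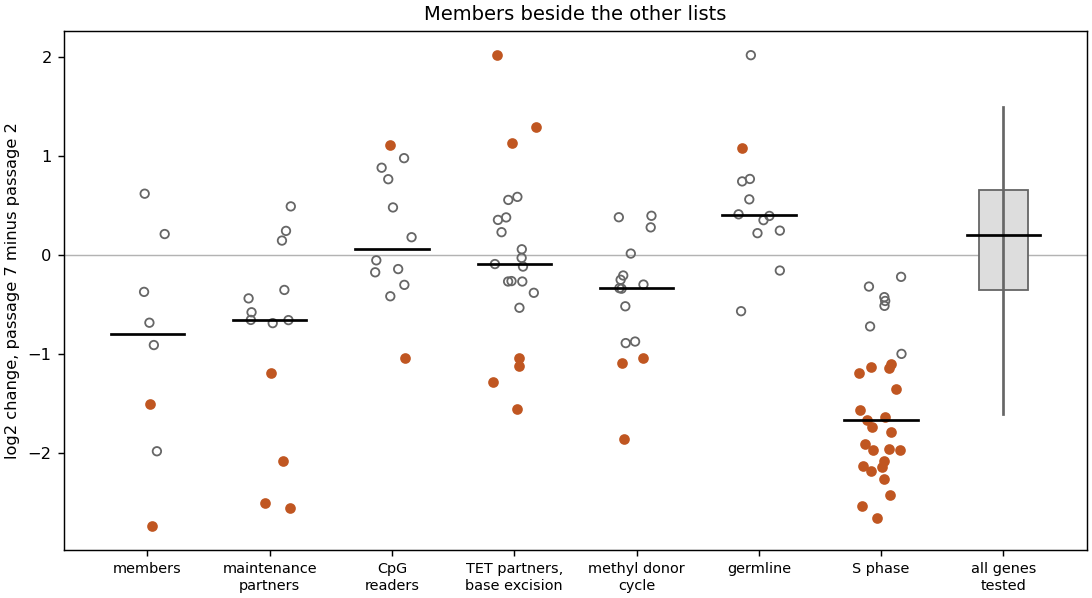
Change of every measured gene (y axis: log2, passage 7 minus passage 2) for the members and the other lists, filled where called, with the median as a bar; the box spans the 25th to 75th percentile of all tested genes and its line the 5th to 95th. The S phase genes sit lowest, with a median of -1.66, and the CpG readers and base excision genes straddle 0.

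Genes of DNA replication were read beside the members, since the maintenance machinery works at the fork. Of 29 measured S phase genes, 22 were lower and none higher, with a median change of -1.66, and 14 were lower without the second passage 7 array. Of all genes, 9.42% were called lower and 9.99% higher. Pola1 (-2.66, limma adjusted p = 0.00706), Mcm10 (-2.54, adjusted p = 0.00536) and Pole (-2.42, adjusted p = 0.00559) fell furthest. Hells fell further than each of the 29. Of the same 29, 8 fell further than Uhrf1, 17 further than Dnmt1, 23 further than Dnmt3b, 24 further than Uhrf2 and 27 further than Dnmt3a. A word of the kind searched above was in the windows of 10 of the 24 S phase genes with one. How far the share of cells in S phase enters the members' values was not tested.

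The mitotic genes Top2a and Ccnb1 were lower by 2.70 and 3.25 on the log2 scale (limma adjusted p = 0.00505 for each). Cdkn2a, the cell cycle inhibitor locus that marks senescent mouse fibroblasts, was 12.4-fold higher (log2 change 3.63 ± 0.29 SE, adjusted p = 0.0058). Mki67 was not analysed here.

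The genes whose pattern lay nearest that of Hells over the 4 arrays, by the root mean square difference of values centred on each gene's mean, were Gcnt1 and Cxadr (0.04 for each). Gcnt1, a glycosyltransferase, changed by -2.68 and Cxadr, a cell adhesion protein, by -2.78 (limma adjusted p = 0.00518 for each). The next in that order, Suv39h2, a histone methyltransferase of heterochromatin, was not well above background on either passage 7 array, so its place in the order is not settled. It was at least 3.33-fold lower (adjusted p = 0.00571). That bound sets the passage 2 mean against the lowest signal well above background on each passage 7 array.

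Counts of called cell type markers are set here beside the 9.42% of all genes called lower and the 9.99% called higher. All 11 measured fibroblast markers were well above background on every array. Their summed signal, in units of the array's 75th percentile, was 329 to 331 at passage 2 and 402 to 554 at passage 7. The sum is set by a few bright probes: 2 of the 11 markers were called lower, Lum (limma adjusted p = 0.00511) and Pdgfra (5.83-fold lower, adjusted p = 0.00765), none was called higher, and their median change was -0.31. The summed level of 8 macrophage markers was 2.10 to 2.29 at passage 2 and 1.00 to 1.21 at passage 7, with Ptprc, the pan-leukocyte marker, not well above background on any array. Of its 7 tested markers 3 were called lower and none higher, with a median change of -0.83 that turned to 0.88 with normexp. Among the 3 was Fcgr1, which was not well above background on either passage 7 array, so no fold is given for it. Another of the 3, Adgre1, was well above background on only 1 passage 7 array. The last of the 3, Csf1r, gave the largest part of the macrophage sum. It changed by -1.26 (limma adjusted p = 0.028) and lost its call in 8 of 15 alternative settings. The summed keratinocyte level was 5.27 to 6.90 and then 14.1 to 14.5, with Ivl and Sfn called higher (61.4-fold and 2.18-fold) and Krt14 called lower (5.03-fold) among 7 tested. The largest part of that sum came from Sfn, which lost its call in 11 of 15 alternative settings. Trp63 changed by -0.99 and did not pass (limma adjusted p = 0.0768). The median change of the tested keratinocyte markers was 0.35, and -0.04 in the authors' table. The trophoblast sum was 0.39 to 0.54 and then 1.15 to 1.32, with Prl2c2 and Prl3d1 called higher among 6 tested. The endothelial sum was 0.60 to 0.70 and then 0.99 to 1.00, with Emcn called higher among 7 tested, while Tek (-0.91) and Cdh5 (-0.71) had changes below 0. Cdh5 passed on p alone (limma adjusted p = 0.0442), below 2-fold, and was well above background on only 1 passage 7 array. The sum of 9 pluripotency and germ cell markers was 1.41 to 1.65 and then 1.78 to 2.74. Its largest part came from Pou5f1, which was not called (0.73, limma adjusted p = 0.0876). Among 5 tested, Dppa5a was called higher (1.45, limma adjusted p = 0.0204). It was dim and adds little to the sum. It lost the call in 7 of 15 alternative settings, among them the authors' table (0.47, limma adjusted p = 0.114). Zfp42, Tdgf1 and Nr0b1 were not well above background on any array. The part of these markers in the members' results was not tested.

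**Figure D4:**
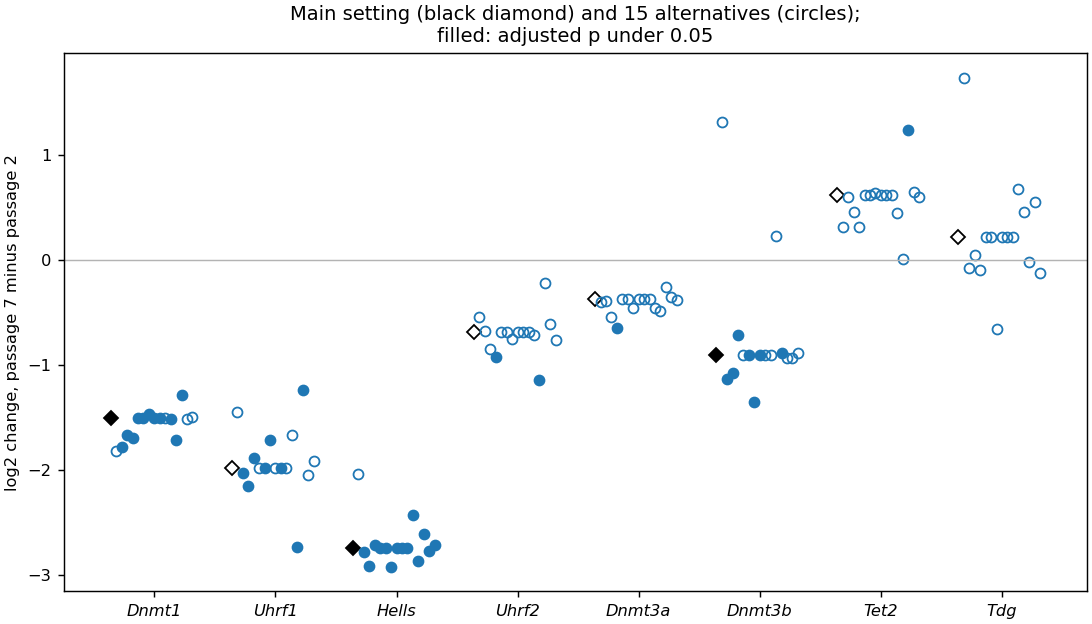
Change of each member (y axis: log2, passage 7 minus passage 2) in the reported setting (diamond) and in the alternative settings (circles), filled where the limma adjusted p was under 0.05. Hells, Dnmt1, Uhrf1, Uhrf2 and Dnmt3a stay below 0 in each, Dnmt3b and Tdg cross it, and Uhrf1 spans -2.73 to -1.24.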

How the data were processed

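Total RNA of 4 samples was labelled from 0.5 µg and hybridised to custom Agilent arrays, per the labels. Per the file headers, Feature Extraction 10.5.1.1 read the spots. The deposited processed signal intensity is already background-subtracted. The authors' value table is on a log2 scale, with medians of 6.3, 6.3, 6.24 and 6.14, and its centring and background treatment are not given in the sources used here. The submitters' processing notes name limma.

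Levels are log2 processed signal after subtraction of its 75th percentile, per array, over non-control spots. Outlier spots (14 to 61 an array) were dropped, and spots of a probe were averaged. Probes were named through RefSeq accessions. A gene was its brightest probe, kept where at least 1 passage had it well above background on each array. Tests were two-sided, with limma 3.58.1 in R 4.3.3 (lmFit, eBayes, Benjamini-Hochberg), checked on simulated data. The members and lists were chosen with earlier results of these data known. Named genes were every member, up to 3 called falls and rises measured in both passages per list, the 3 nearest to Hells, and Mki67, Top2a, Ccnb1 and Cdkn2a. Other genes were named after their values were seen. One gene counted in a list is not reported here. The alternatives tried were normexp (offset 50, on the median signal), quantile and median scaling, the authors' table, other probe filters and summaries, a mean-variance trend, a replicate block and leaving out each array.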

Additional observations from a re-analysis of the deposited data

How the results depend on the processing

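With 2 arrays a passage, dim genes (Dnmt3b, Tdg) and genes with a wide passage 2 gap (Uhrf1, Uhrf2, Tet2) are measured least well. The fall of Hells passed in each setting except normexp (-2.03, limma adjusted p = 0.562), where no gene passed (664 at an unadjusted p under 0.05), and Dnmt1 gave -1.82 (0.562) there. A second normexp run, with marked backgrounds replaced, was chosen after seeing the data. Genes called numbered 1771 with no filter on dim probes, 0 and 1196 with the normexp runs, and 1087 to 3322 with one array left out. The share of called genes that were higher was 51.5%, 41.2% with median scaling and 35.3% in the authors' table, and the median change of all genes ran from -0.06 (authors' table) to 0.49 (normexp). Members called lower numbered 4 with the mean of all probes, median scaling or quantile normalization, 0 with normexp and 1 to 4 with one array left out, and members called higher 0 to 1. Uhrf1 passed in the authors' table (-1.89, adjusted p = 0.0189), with the mean of all probes (-1.71), the trend (-1.98), median scaling (-2.15), quantile normalization (-2.02) and a filter on all 4 arrays (-1.98), and ran from -2.73 to -1.24 with one array left out. With one array left out Dnmt1 ran from -1.71 to -1.29, Dnmt3b from -0.93 to -0.88, Uhrf2 from -1.14 to -0.22, Tet2 from 0.0094 to 1.23 and Tdg from -0.12 to 0.55. Dnmt3b stayed at -0.91 but missed the threshold with the trend (adjusted p = 0.071) and no filter (0.0633), and turned with the normexp runs (1.31 and 0.23). Tdg turned in the authors' table (-0.10), the mean of all probes (-0.65) and quantile normalization (-0.077). The authors' table moved Dnmt3a to -0.65 and Uhrf2 to -0.92, both past the p threshold. Dnmt3a minus Dnmt3b turned with the normexp runs (-1.71 and -0.69). The methylation lists had 6 genes lower with no filter, 0 and 5 with the normexp runs and 4 to 10 with one array left out, and had 2 genes higher in the authors' table, with median scaling and with quantile normalization, 1 with no filter, 0 and 2 with the normexp runs and 1 to 4 with one array left out. S phase genes lower numbered 0 with normexp. Arrays share only a replicate number (correlation of deviations -0.17), and with the replicate block 1173 genes and 1 member, Hells, were called, Dnmt1 stayed at -1.50 (adjusted p = 0.053), Dnmt3b at -0.91 (0.0846), and the lists had 4 genes lower and 1 higher. The crossed replicate block, added after seeing the data, called 3067 genes and 3 members lower. The cause of these moves was not tested.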

Other observations

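Genes that DNA methylation is known to silence outside the germ line were read as a further list. Of 22 listed, 20 had a probe and 12 were measured. Of these, 1 was called higher, where 9.99% of all genes were, and none lower, with a median change of 0.40 against 0.20 for all genes. The one called was Tdrkh, a piRNA pathway gene, with levels of -4.24 and -4.54 at passage 2 and -3.36 and -3.25 at passage 7 (log2 change 1.09 ± 0.20 SE, limma adjusted p = 0.0242). It lost the call in 11 of 15 alternative settings, among them those without either passage 7 array. Ddx4, the germ cell RNA helicase, read -3.61 ± 0.31 at passage 2 and -3.04 ± 0.07 at passage 7 (SD, n = 2), and did not pass (0.56 ± 0.23 SE, adjusted p = 0.132). Dazl, Tex101, Fkbp6, Mov10l1 and Stk31 were not well above background on any array. Sycp3 and Tex11 were so on 1 passage 7 array only, and Hormad1 on 1 array of each passage, so these were not tested either.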
